A study of Canis lupus familiaris with 12 samples.

Results

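The genes of the cell cycle and of DNA replication were followed in heart tissue from dogs diagnosed with degenerative mitral valve disease (DMVD) and from control dogs. The set was named by gene symbol: 35 symbols of cyclins, mitotic kinases, spindle proteins, replication factors and nucleotide-synthesis enzymes. A row was found for 33 of them among the 24223 genes listed for each tissue. CCNB1 and CENPF were not analysed here. In DMVD the leaflets of the mitral valve thicken and no longer close tightly, so that blood flows backwards into the atrium. RNA was sequenced in 12 libraries, made from 8 dogs and divided by diagnosis and tissue into 4 groups. The left ventricle gave 2 DMVD libraries, from a Jack Russell Terrier aged 5 years and a Pomeranian aged 9, and 4 control libraries, from a Beagle aged 8 and Hound mixes aged 3. For the mitral valve there were 3 DMVD libraries, from the Pomeranian and from Beagles aged 16 and 17, and 3 control libraries, from the Beagle aged 8 and Hound mixes aged 3. Both tissues came from 3 control dogs and 1 DMVD dog. In the valve the DMVD dogs were all older than the controls, so diagnosis and age cannot be told apart there, while Beagles stand in both groups. In the ventricle the ages overlap but no breed is shared, so diagnosis and breed cannot be told apart.

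Each tissue has 1 deposited value per gene and group, read as FPKM, that is fragments scaled to gene length and library size. No value of a single library was used, so the spread between dogs and the depth of each library are unknown. The errors below are standard errors (SE) taken from the authors' test statistic on the group values, and p-values measure that model error only. In whole tissue, fewer dividing cells and less RNA per dividing cell cannot be told apart.

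A cell that commits to division first switches on E2F-driven genes, then loads the MCM helicase on its DNA, copies the genome in S phase, and finally builds a spindle under the control of CDK1, the Aurora kinases and PLK1. Most of these transcripts are made only in cycling cells and are destroyed on leaving the cycle, so their level in a tissue largely follows how many of its cells are dividing. Adult heart muscle cells rarely divide, and interstitial cells of the healthy valve are mostly quiescent. PCNA, the ribonucleotide reductase subunit RRM1 and some other members also serve DNA repair and are not restricted to dividing cells.

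No cell cycle member passed the test between DMVD and control in either tissue. The authors tested 17 of the 33 members in the ventricle and 22 in the valve, and at an adjusted p under 0.05 (the authors' p with Benjamini-Hochberg adjustment over all tested genes) 0 members were called in each. Over all tested genes the called share was 3.08% in the ventricle and 0.419% in the valve. At an unadjusted p under 0.05 the ventricle had 0 members and the valve had 1, TOP2A, against a background of 11.3% and 4.2% of tested genes. The lowest adjusted p of any member was 0.550 in the ventricle, for MCM6, and 0.9999 in the valve.

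Most members were near the bottom of the expression range in every group. The median member stood at 0.395 FPKM in DMVD ventricle and 0.478 in control ventricle, and at 1.13 in DMVD valve and 0.942 in control valve. For comparison, the median tested gene had 4.56 and 4.67 FPKM in the ventricle and 6.36 and 5.84 in the valve, DMVD first. Under 1 FPKM were 23 members in DMVD ventricle, 22 in control ventricle, 15 in DMVD valve and 17 in control valve. In all 4 groups, 14 members stayed under 1 FPKM and 11 of these under 0.5 FPKM. The authors tested none of those 11 in either tissue.

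Only CDK1, TYMS, PCNA and RRM1 exceeded 5 FPKM in all 4 groups. These 4 genes held 79.0% of the summed member FPKM in DMVD ventricle (total 77.9 FPKM), 73.8% in control ventricle (67.1), 71.4% in DMVD valve (133.5) and 70.7% in control valve (105.6). A sum over the module is therefore mainly a sum over these 4 genes. Classical proliferation markers stood far below them: MKI67, the Ki-67 antigen of cycling nuclei, had 0.0292 FPKM in DMVD ventricle, 0.0490 in control ventricle, 0.106 in DMVD valve and 0.0467 in control valve. FPKM of CDK1 was 939 times that of MKI67 in DMVD ventricle, 342 times in control ventricle, 292 times in DMVD valve and 433 times in control valve.

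**Figure D1:**
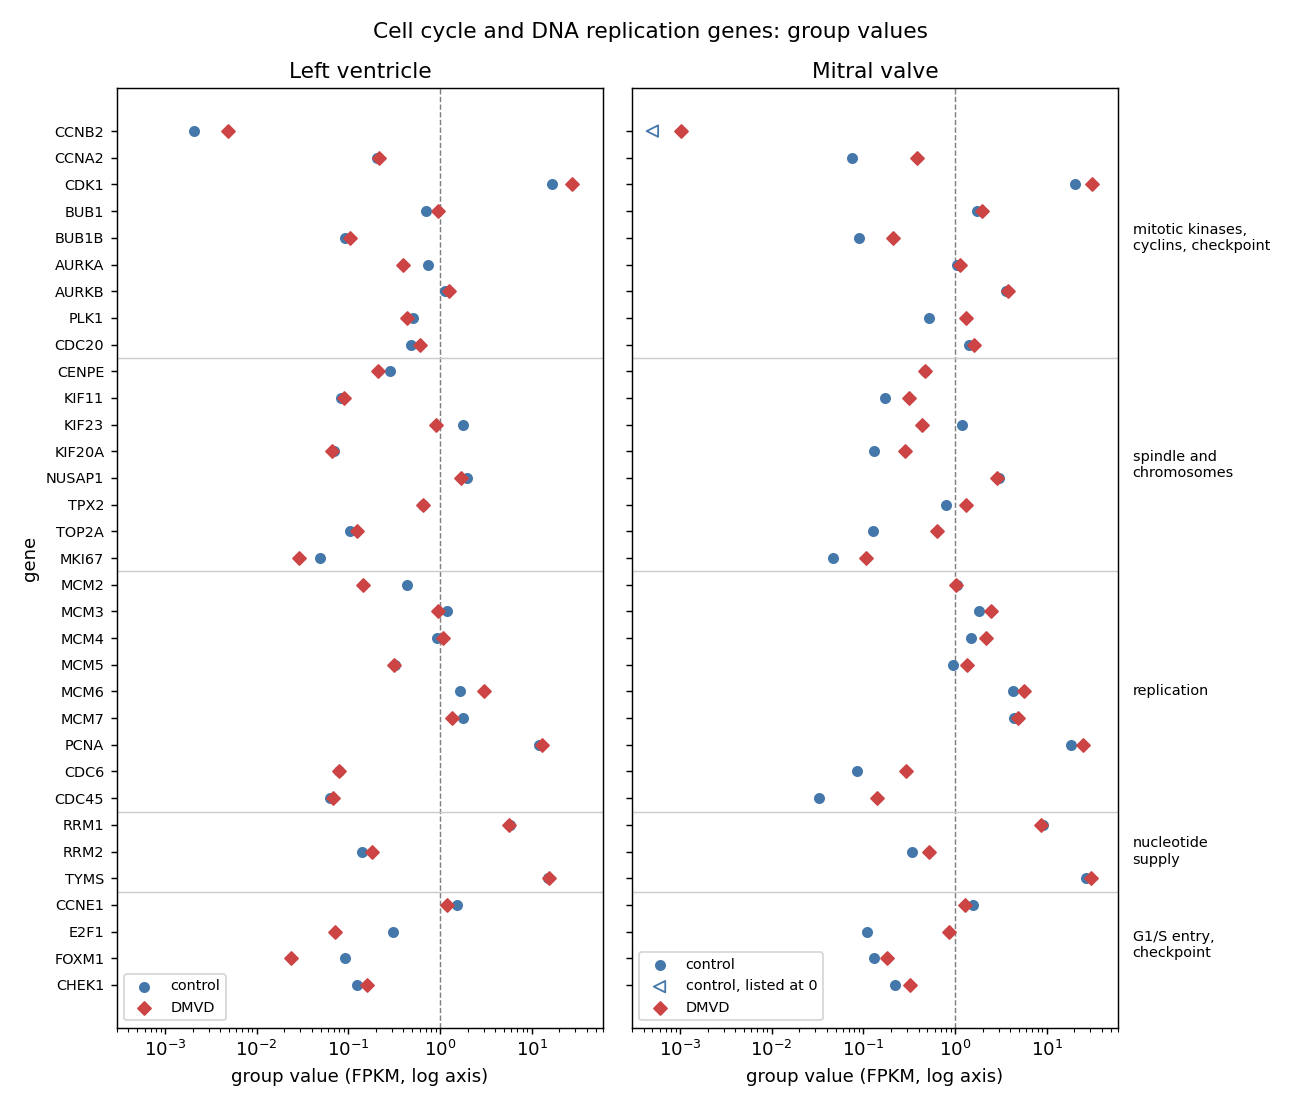
Group values of the 33 members in FPKM on a log axis, left ventricle on the left and mitral valve on the right, with blue circles for control and red diamonds for DMVD and a dashed line at 1 FPKM. An open triangle marks a value listed at 0. CDK1, TYMS, PCNA and RRM1 stand apart at over 5 FPKM in all 4 groups, and 14 members stay under 1 FPKM throughout.

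Among the mitotic kinases, cyclins and checkpoint genes, 7 of 9 members had a higher group value in DMVD than in control ventricle and 9 of 9 in the valve, with none called. Without the row named CCNB2, whose position is described below, the counts were 6 of 8 and 8 of 8. CDK1, the kinase that drives entry into mitosis (ENSCAFG00000012904, chromosome 4 from 12885974 to 12912553, CanFam3.1), had 27.5 FPKM in DMVD and 16.8 in control ventricle, and 30.9 in DMVD and 20.2 in control valve. Its log2 fold change, DMVD over control, was 0.71 ± 0.51 (SE) in the ventricle and 0.61 ± 0.64 in the valve. Both 95% intervals include 0, from -0.29 to 1.71 and from -0.64 to 1.87. CDK1 was thus the most abundant member in every group except control valve, where TYMS was higher. Its cyclin partner CCNA2 was low throughout, at 0.217 FPKM in DMVD and 0.205 in control ventricle and at 0.385 in DMVD and 0.0743 in control valve, and was not tested. The FPKM of CDK1 was 127 and 81.7 times that of CCNA2 in DMVD and control ventricle, and 80.4 and 272 times in DMVD and control valve.

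PLK1, a kinase of mitotic entry and spindle assembly, differed most between groups among the tested kinases of the valve. It had 1.32 FPKM in DMVD and 0.519 in control valve, a log2 fold change of 1.35 ± 0.91 (SE) with a 95% interval from -0.44 to 3.13. In the ventricle PLK1 had 0.436 FPKM in DMVD and 0.514 in control (log2 -0.24 ± 0.78). AURKA, which matures the spindle poles, had 0.395 and 0.737 FPKM in DMVD and control ventricle (log2 -0.90 ± 0.84) and 1.13 and 1.04 in the valve (0.11 ± 0.91). AURKB, of the chromosomal passenger complex, showed similar levels in the groups of a tissue: 1.25 and 1.13 FPKM in DMVD and control ventricle and 3.79 and 3.56 in DMVD and control valve. The spindle checkpoint kinase BUB1 had 0.947 and 0.698 FPKM in the ventricle and 1.99 and 1.76 in the valve, DMVD first. CDC20, which activates the anaphase-promoting complex, had 0.606 and 0.478 FPKM in the ventricle and 1.62 and 1.43 in the valve. The log2 fold changes of AURKB, BUB1 and CDC20 lay between 0.09 and 0.44 in both tissues, each with an SE above 0.58. BUB1B, the checkpoint partner of BUB1, had 0.105 and 0.0917 FPKM in the ventricle and 0.212 and 0.0895 in the valve, and was not tested.

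The row named CCNB2 held almost no signal: 0.00489 FPKM in DMVD and 0.00210 in control ventricle, 0.00102 in DMVD valve, and it was listed at 0 in control valve. It spans 898 bases on chromosome 25, from 13443296 to 13444193. Of the 5 named genes on each side of it in the table, 0 of 10 lie among the 15 nearest genes on each side of CCNB2 in RefSeq (assembly UU_Cfam_GSD_1.0, used for neighbours only), whereas 32 of the 33 members share at least 1 neighbour. The values of this row are therefore given as those of the row named CCNB2, not of the cyclin gene.

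Of the spindle motors, kinetochore and chromosome proteins, 3 of 8 members were higher in DMVD ventricle and 5 of 8 in DMVD valve. TOP2A, the topoisomerase that untangles sister DNA in dividing cells, had 0.125 FPKM in DMVD and 0.106 in control ventricle, where it was not tested. In the valve it had 0.634 FPKM in DMVD and 0.127 in control. The valve log2 fold change was 2.31 ± 1.18 (SE), with a 95% interval from 0.01 to 4.62, and the p in the authors' deposited table was 0.0491. After Benjamini-Hochberg adjustment over all tested genes that p is 0.9999, so TOP2A was not called. With 1 FPKM added to both values the log2 fold change of TOP2A in the valve is 0.54. Its listed locus, chromosome 9 from 22207403 to 22237674, is shared with an unnamed gene, ENSCAFG00000024324.

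KIF23, a motor of the central spindle that acts in cytokinesis, was the tested member with the lowest log2 fold change in both tissues. It had 0.902 FPKM in DMVD and 1.80 in control ventricle (log2 -0.997 ± 0.699 SE), and 0.440 in DMVD and 1.18 in control valve (-1.43 ± 1.12). The 95% intervals, from -2.37 to 0.37 and from -3.63 to 0.77, include 0. NUSAP1, a microtubule-bundling protein, had 1.68 and 1.98 FPKM in the ventricle and 2.86 and 3.06 in the valve, DMVD first, which is slightly lower in DMVD in both. TPX2, which activates AURKA on the spindle, had 0.658 and 0.651 FPKM in the ventricle and 1.32 and 0.807 in the valve (log2 0.02 ± 0.71 and 0.72 ± 0.91). The others of this role were untested in both tissues. The kinetochore motor CENPE had 0.211 and 0.287 FPKM in the ventricle and 0.465 and 0.469 in the valve. The bipolar spindle motor KIF11 had 0.0907 and 0.0839 FPKM in the ventricle and 0.312 and 0.171 in the valve. KIF20A, a motor of late mitosis, had 0.0669 and 0.0694 FPKM in the ventricle and 0.286 and 0.131 in the valve. KIF11, KIF20A and MKI67 thus had a higher valve value in DMVD than in control, at levels the authors did not test.

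The replication group holds the MCM helicase, its loader CDC6, its partner CDC45 and the sliding clamp PCNA. In the ventricle 5 of 9 were higher in DMVD and in the valve 8 of 9, with none called. The 6 MCM subunits form 1 ring, and their summed FPKM was 6.85 in DMVD and 6.36 in control ventricle, and 17.7 in DMVD and 13.96 in control valve. Individually 2 of 6 subunits were higher in DMVD ventricle and 5 of 6 in DMVD valve. MCM6 (chromosome 19, from 38627063 to 38661148) had the largest positive change of the tested members in the ventricle, at 3.00 FPKM in DMVD and 1.67 in control. Its log2 fold change there was 0.84 ± 0.48 (SE), with a 95% interval from -0.10 to 1.79. In the valve MCM6 had 5.73 and 4.29 FPKM in DMVD and control (log2 0.42 ± 0.48). MCM2 stood at 0.146 FPKM in DMVD and 0.435 in control ventricle, a log2 fold change of -1.57 ± 0.75. The authors' deposited table lists a p of 0.0365 for it but marks the gene as not tested in the ventricle. With 1 FPKM added to both values that change of MCM2 is -0.32. MCM2 values in the valve were nearly equal, 1.02 and 1.06 FPKM.

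The subunits of the ring did not stand at equal levels. The FPKM of MCM6 was 20.5 times that of MCM2 in DMVD ventricle and 3.84 times in control ventricle, and 5.61 and 4.06 times in DMVD and control valve. MCM3 had 0.954 and 1.20 FPKM in the ventricle and 2.49 and 1.83 in the valve, DMVD first. MCM4 had 1.08 and 0.926 FPKM in the ventricle and 2.17 and 1.49 in the valve. In the valve MCM3, MCM4 and MCM5 were higher in DMVD by a similar amount, with log2 fold changes of 0.45 ± 0.59, 0.55 ± 0.52 and 0.54 ± 0.73 (SE). MCM5 had 0.318 and 0.321 FPKM in the ventricle and 1.37 and 0.942 in the valve. MCM7 had 1.36 and 1.80 FPKM in the ventricle and 4.89 and 4.35 in the valve, and its locus also holds COPS6 and the microRNAs mir-25, mir-93 and mir-106b.

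PCNA, which tethers the DNA polymerases, was abundant and nearly equal in the ventricle at 12.981 FPKM in DMVD and 12.003 in control (log2 0.11 ± 0.47 SE). In the valve it had 25.1 FPKM in DMVD and 18.4 in control (0.45 ± 0.51). Its intervals, from -0.82 to 1.04 and from -0.55 to 1.44, leave room for either direction. The licensing factor CDC6 had 0.0799 and 0.0790 FPKM in the ventricle and 0.292 and 0.0859 in the valve. CDC45, a part of the active replicative helicase, had 0.0679 and 0.0625 FPKM in the ventricle and 0.142 and 0.0328 in the valve. Both were untested, nearly equal between the ventricle groups, and higher in DMVD in the valve by 1.77 (CDC6) and 2.12 (CDC45) on the log2 scale, with SE of 1.30 and 3.24.

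The enzymes of nucleotide supply showed the narrowest differences. RRM1, the large subunit of ribonucleotide reductase, had 5.71 FPKM in DMVD and 5.84 in control ventricle, and 8.61 in DMVD and 9.18 in control valve. Its log2 fold changes of -0.03 ± 0.42 and -0.09 ± 0.43 (SE) were the most precise of the tested members, with 95% intervals from -0.85 to 0.79 and from -0.93 to 0.75. TYMS, thymidylate synthase, had 15.4 and 14.9 FPKM in DMVD and control ventricle (log2 0.04 ± 0.65) and 30.7 and 26.9 in DMVD and control valve (0.19 ± 0.64). RRM2, the subunit whose synthesis is limited to S phase, was much lower than RRM1: 0.183 and 0.143 FPKM in the ventricle and 0.522 and 0.337 in the valve. RRM1 thus had 31.2 and 40.9 times the FPKM of RRM2 in DMVD and control ventricle, and 16.5 and 27.2 times in the valve. The alternative small subunit RRM2B, which serves quiescent cells and is no member, had 4.53 and 5.09 FPKM in the ventricle and 4.11 and 5.43 in the valve. That is close to RRM1 in the ventricle and below RRM1 in the valve.

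Among the genes of cell cycle entry, transcription and the S-phase checkpoint, 1 of 4 members was higher in DMVD ventricle and 3 of 4 in DMVD valve. CCNE1, cyclin E1 of the G1/S transition, had 1.20 and 1.53 FPKM in the ventricle and 1.30 and 1.59 in the valve, lower in DMVD in both (log2 -0.36 ± 0.57 and -0.29 ± 0.71 SE). E2F1, the transcription factor that switches on many S-phase genes, had 0.0711 and 0.306 FPKM in the ventricle and 0.857 and 0.110 in the valve. The valve log2 fold change of E2F1, 2.96 ± 2.23, was the largest of any tested member and also the least precise, with a 95% interval from -1.42 to 7.34. The E2F1 row spans only 828 bases. FOXM1, which drives G2/M genes, had 0.0238 and 0.0921 FPKM in the ventricle and 0.183 and 0.130 in the valve, and was not tested. The checkpoint kinase CHEK1 had 0.160 and 0.125 FPKM in the ventricle and 0.322 and 0.219 in the valve, also untested. E2F1 and FOXM1 were lower in DMVD ventricle and higher in DMVD valve, in each case at under 1 FPKM. Their ventricle log2 fold changes were -2.11 ± 2.25 (SE) for E2F1, not tested there, and -1.95 ± 1.69 for FOXM1. The valve change of FOXM1 was 0.49 ± 1.24.

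**Figure D2:**
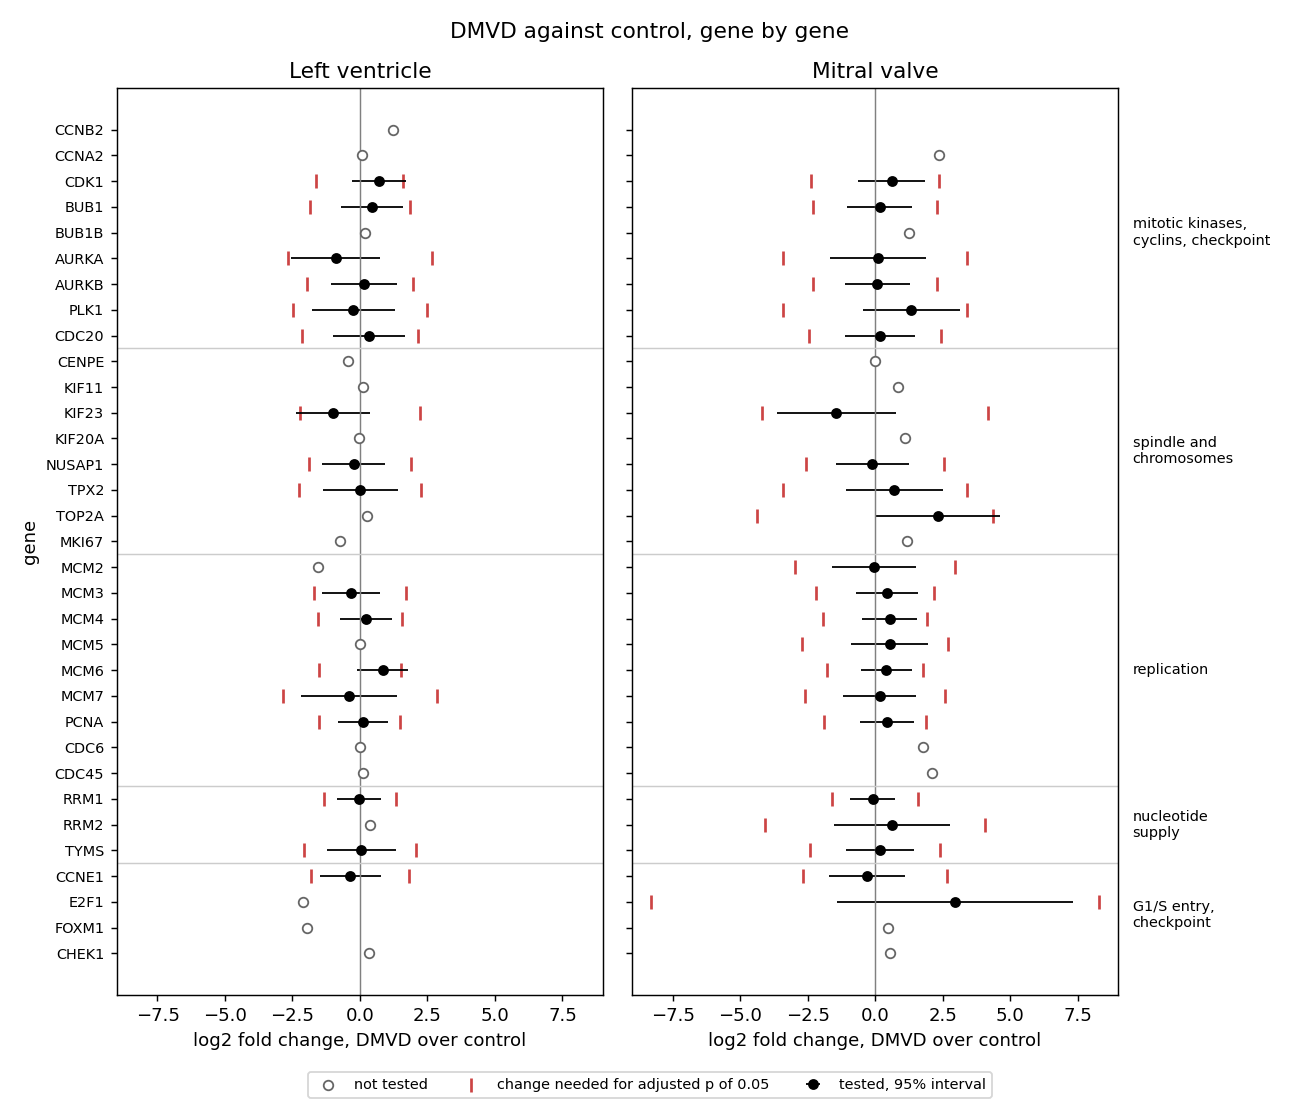
Log2 fold change of each member, DMVD over control, with left ventricle (left) and mitral valve (right). Filled points with bars are tested members with their 95% intervals, open points are untested members, and red ticks mark the change that an adjusted p of 0.05 would have required. No filled point passes its red tick in either tissue, and only TOP2A in the valve has an interval above 0.

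The members' group values leaned upward in the valve and were balanced in the ventricle. In the ventricle 18 of 33 members were higher in DMVD and 15 lower, with a median log2 fold change of 0.02, beside -0.04 for all tested genes, of which 46.8% were higher. Without the row named CCNB2, 17 of 32 members were higher in the ventricle and 26 of 32 in the valve. In the valve 27 of 33 were higher and 6 lower (RRM1, MCM2, CCNE1, NUSAP1, CENPE and KIF23), with a median of 0.52 over the 32 members above 0 in both groups. All tested genes of the valve had a median of 0.05, and 54.9% of them were higher in DMVD. The low members held the larger valve changes: the 17 members with a mean of at least 1 FPKM had a median of 0.18, of which 13 were higher, and adding 1 FPKM to all values gave a median of 0.16. Among all valve genes with a mean of 0.1 to 1 FPKM, 55.9% were higher in DMVD, and among the 13 members in that range 11 were. In the ventricle 42.8% of genes in that range and 7 of 13 members were higher. These counts carry no test, because the members share dogs, libraries and the errors of each group.

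The precision of the tables sets what could have been called. A tested member of the ventricle would have needed a log2 change of 1.32 (RRM1) to 2.86 (MCM7), with a median of 1.89. In the valve the needed change ran from 1.60 (RRM1) to 8.31 (E2F1), with a median of 2.57. For PCNA, a change of 1.501 in the ventricle and of 1.89 in the valve would have been called. Smaller observed changes in these genes would not have been called at the same SE.

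**Figure D3:**
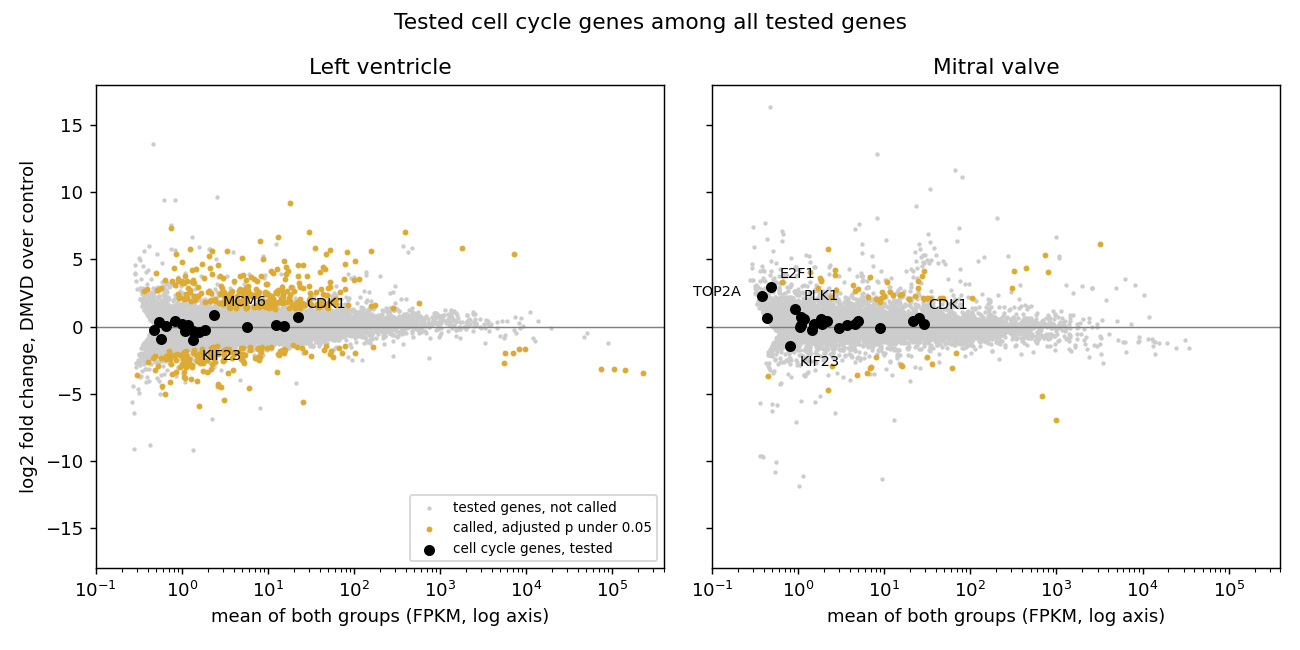
Log2 fold change, DMVD over control, against the mean of both groups in FPKM (log axis) for tested genes above 0 in both groups. Grey points are genes not called, yellow points are genes with an adjusted p under 0.05, and black points are the 17 and 22 tested members. The members lie within the grey band in both tissues, most of them at the low end of the FPKM axis.

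Whether the DMVD effect on a member differed between valve and ventricle was tested as the difference of the log2 fold changes over its combined SE. Of 13099 genes tested this way 0.107% were called after Benjamini-Hochberg adjustment and 2.66% had an unadjusted p under 0.05. The 17 members tested in both tissues included 0 of either kind. Their differences, valve minus ventricle, ran from -0.43 for KIF23 to 1.59 for PLK1, with SE from 0.60 to 1.32. For PLK1 the difference was 1.59 ± 1.20 (SE). AURKA followed with 1.01 ± 1.24 and MCM3 with 0.78 ± 0.80, and CDK1 was near 0 at -0.10 ± 0.82. The upward lean of the valve counts is thus not shown to differ from the ventricle for any single member. The tables were normalised separately, and the dogs that gave both tissues make the effects partly dependent.

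Control tissues set side by side had higher values in the valve for most members, and also for the median of all genes above 1 FPKM. Of the 32 members above 0 in both, 26 had a higher FPKM in control valve than in control ventricle, with a median log2 ratio of 0.62. The share of all genes higher in control valve is not given here, so that count stands without a background. Over the 11 members above 1 FPKM in both control groups the median was also 0.62, and over all genes above 1 FPKM in both it was 0.31. The largest ratios of members above 1 FPKM in both were those of AURKB (1.65), MCM6 (1.36) and MCM7 (1.27). TYMS had 26.9 FPKM in control valve and 14.9 in control ventricle, and KIF23 was lower in the valve (1.18 against 1.80). This comparison has no test, since the values come from separately normalised tables.

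The wider cell cycle machinery held no more calls than the tables as a whole. The 5 wider lists hold 217 genes outside the members, 190 of them with a row. In the ventricle 119 were tested, of which 1 rose and 1 fell, or 1.68% called beside 3.08% of all tested genes. An unadjusted p under 0.05 was found for 9 of them, or 7.56% beside 11.3%. In the valve 138 were tested, with 0 called beside 0.419% of all tested genes, and 1 had an unadjusted p under 0.05, or 0.725% beside 4.2%. The called genes were MYC and TK1. MYC, the growth-promoting transcription factor (ENSCAFG00000001086, chromosome 13 from 25200392 to 25205878), rose in the ventricle, with 15.4 FPKM in DMVD and 2.93 in control. Its log2 fold change was 2.39 ± 0.46 (SE), with an adjusted p of 3.74e-05 (Benjamini-Hochberg on the authors' p). In the valve MYC had 17.2 FPKM in DMVD and 6.43 in control, 1.42 ± 0.50, adjusted p 0.360. TK1, thymidine kinase of the salvage route of nucleotide supply (ENSCAFG00000005294, chromosome 9 from 2958903 to 2971015), fell in the ventricle, with 1.28 FPKM in DMVD and 4.89 in control. That log2 fold change was -1.93 ± 0.57, adjusted p 0.0276 by the same adjustment, and the more conservative Benjamini-Yekutieli adjustment gave 0.279, which ends the call. TK1 in the valve had 1.17 FPKM in DMVD and 2.76 in control, -1.24 ± 0.71, adjusted p 0.9999. The DMVD effects of MYC and TK1 did not pass the test of a difference between tissues, which was -0.98 ± 0.68 for MYC and 0.69 ± 0.91 for TK1.

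Among the cyclins, CDKs, E2F factors and MYC, 16 of 28 genes with a row were higher in DMVD ventricle and 18 of 28 in DMVD valve, with medians of 0.11 and 0.15. CCND1, cyclin D1 of G1 progression, had 1.80 and 4.91 FPKM in DMVD and control ventricle (log2 -1.45 ± 0.56 SE, Benjamini-Hochberg adjusted p 0.173) and 6.48 and 8.41 in the valve. Of the CDK inhibitors, pocket proteins and other antiproliferative genes, 5 of 18 were higher in DMVD ventricle and 9 of 18 in DMVD valve, with medians of -0.43 and 0.01. BTG2, an antiproliferative early-response gene, had 65.1 and 25.1 FPKM in DMVD and control ventricle (1.37 ± 0.47, adjusted p 0.0837 by the same method), and BTG1 had 97.1 and 44.0. The inhibitor CDKN2C had 1.34 and 2.88 FPKM. None of these 4 genes passed the adjusted threshold.

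The remaining lists had no call other than TK1. For mitosis and cytokinesis 24 of 64 genes were higher in DMVD ventricle and 48 of 64 in DMVD valve, with medians of -0.31 and 0.44. TACC3, a spindle protein, had 0.946 and 0.320 FPKM in the ventricle, and the checkpoint protein MAD1L1 had 1.31 and 2.64, both without a call. Replication and S phase gave 27 of 50 and 33 of 50, with medians of 0.09 and 0.24, and DNA damage and recombination gave 8 of 30 and 17 of 30, with medians of -0.28 and 0.09. NEIL3, a glycosylase of replication-linked repair, had 0.306 and 1.33 FPKM in DMVD and control ventricle (log2 -2.12 ± 0.88 SE) and was not called. The mitosis list thus had a larger share of higher values in the valve than in the ventricle, as the members did, without a test of that difference. The share over all tested genes, to set beside the counts of each list, was also larger in the valve, at 54.9% against 46.8% in the ventricle.

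**Figure D4:**
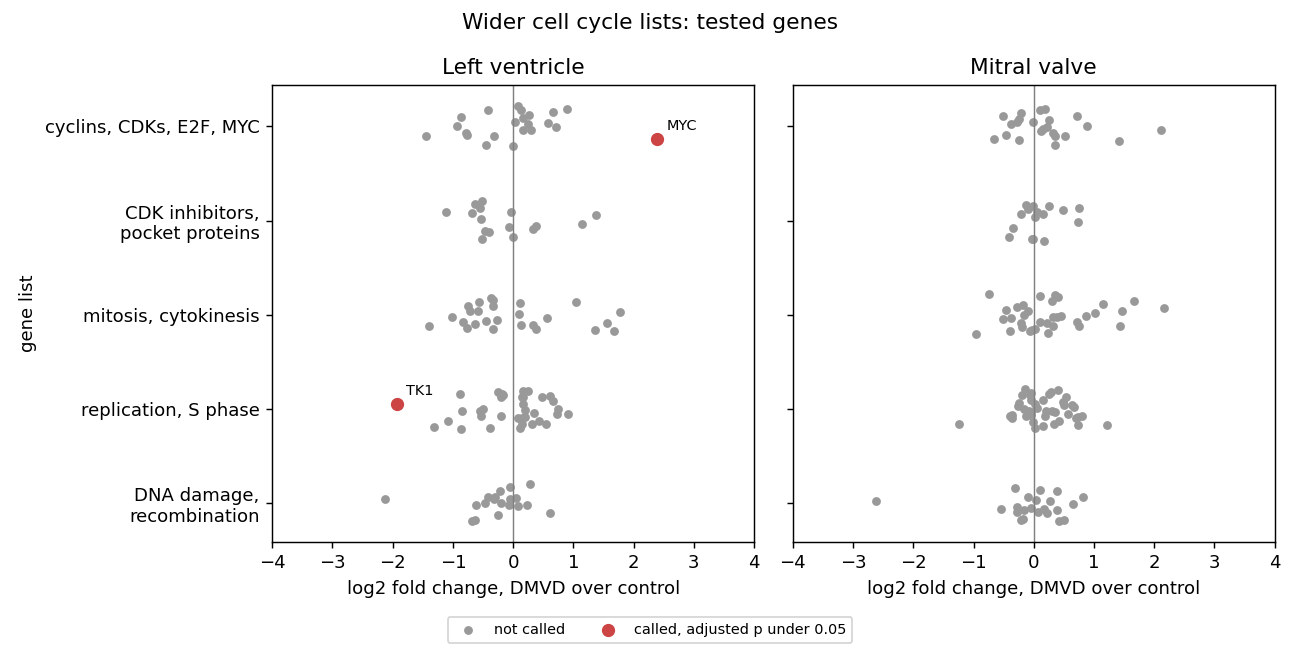
Log2 fold change, DMVD over control, of the tested genes of the 5 wider lists, 1 row of points per list, left ventricle on the left and mitral valve on the right. Red points are genes with an adjusted p under 0.05. MYC (2.39) and TK1 (-1.93) in the ventricle are the only red points.

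Some markers of other cell types were called between the same groups, but none of lymphocytes, of fibroblasts and valve interstitial cells, or of smooth muscle. Summed erythroid marker FPKM was 3604 in DMVD and 62.6 in control ventricle (4 of 4 tested markers rose), and 608 and 35.8 in the valve (1 of 4 rose; CA1 was listed at 0 in both control groups and HBM in control valve). HBA made up most of each erythroid sum, with 3559 and 61.3 FPKM in the ventricle and 604 and 34.4 in the valve. Neutrophil markers summed to 377 and 14.1 FPKM in the ventricle (5 of 5 rose) and 43.3 and 8.65 in the valve (1 of 4). Macrophage and monocyte markers summed to 80.2 and 29.7 FPKM in the ventricle (2 of 6 rose) and 216 and 69.4 in the valve (1 of 7). Lymphocyte markers, of cells that can divide, summed to only 4.41 and 3.44 FPKM in the ventricle (0 of 3 called; MS4A1 and NKG7 listed at 0 in DMVD). NKG7 alone held 1.26 FPKM of the sum in control ventricle. In the valve the lymphocyte sums were 6.67 and 1.85 FPKM (0 of 5 called, with NKG7 listed at 0 in both groups and CD79B and GZMB in control). Of the 10 lymphocyte markers with a row, 4 were higher in DMVD ventricle and 6 lower. In the valve 8 were higher in DMVD and 1 lower. Endothelial markers summed to 138 and 60.6 FPKM in the ventricle and 94.0 and 38.6 in the valve, and 1 of 5 rose in each, VWF in the ventricle and EMCN in the valve. Among the cardiomyocyte markers, the authors' deposited table marks MYH7 in the ventricle with the status HIDATA, not as tested, and lists it at 0 in control, so its row was left out of the sums. The other 5 summed to 15513 FPKM in DMVD and 18357 in control ventricle (0 of 5 called) and to 6083 and 11435 in the valve, or 7363 and 14502 with MYH7. Only ACTC1 of these 5 was higher in DMVD ventricle, with 3282 FPKM against 1565 in control. In the valve MYL3 fell and the other 5, MYH7 included, were not called, with ACTC1 higher in DMVD (3164 and 2785 FPKM). Fibroblast and valve interstitial markers summed to 72.7 and 92.1 FPKM in the ventricle and 1146 and 968 in the valve (0 of 3 called in each). The row named COL3A1 was low, at 0.449 and 0.455 FPKM in DMVD and control valve, and untested in both tissues. Its locus is shared, and the neighbours of marker rows were not checked as those of the members were. Smooth muscle markers summed to 252 and 149 in the ventricle and 1697 and 775 in the valve (0 of 4 called in each). TAGLN made up most of the smooth muscle sums in the ventricle (210 and 86.9 FPKM), and 3 of the 5 markers were lower in DMVD there. In the valve TAGLN, ACTA2 and MYH11 were higher and SMTN (34.2 and 37.6 FPKM) and CNN1 lower. The CNN1 row, counted as lower in both tissues, held almost no signal and was not tested. It was listed at 0 in DMVD and 0.0179 FPKM in control ventricle, and at 5.23e-05 and 5.47e-05 FPKM in DMVD and control valve. The part of these cell types in the values of the members, MYC and TK1 was not tested.

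Some members share their listed locus with other genes, which can divide fragments between them. This holds for 10 of the 33: KIF20A with CDC23, CDC20 with ELOVL1, BUB1 with SNORA29, CCNA2 with EXOSC9, BUB1B with PAK6, PLK1 with ERN2, CDC6 and NUSAP1 with U6 copies, and MCM7 and TOP2A as given above. Without them the median log2 fold change of the members was 0.02 in the ventricle and 0.47 in the valve.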

How the data were processed

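RNA from left ventricle and mitral valve was sequenced on an Illumina HiSeq instrument after TruSeq library preparation, per the labels. Reads were processed with Bowtie, TopHat and cutadapt on build CanFam3.1, per the submitters' processing notes. The sources used here do not give the program that made the gene values or its use of strand. For each tissue the authors deposited a table with 1 value per gene and group, read as FPKM from the values and the Cuffdiff-like layout of the file headers. Their deposited test statistic, a score, comes from the authors, and the authors' deposited p-value is unadjusted. A status column in the deposited tables marks 13788 tested genes in the ventricle and 14810 in the valve. The deposited fold change (control over DMVD) was recomputed as log2 of DMVD over control.

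SE was the size of that log2 value divided by the statistic, and 95% intervals are 1.96 SE. The p-values were adjusted by Benjamini-Hochberg over all tested genes of a tissue, at 0.05. The change needed for a call is the SE times the statistic of the last called gene, 3.17 in the ventricle and 3.72 in the valve. Effects of the tissues were compared by a two-sided normal test of their difference. The scripts were tested on simulated data. Alternatives were other adjustments, added FPKM (1 or 0.1), a mean of at least 1 FPKM, centring, and leaving out members at shared loci, untested members or CCNB2. The last of these, the medians over tested members, and the alternatives for MYC and TK1 were chosen after seeing the data. Every member is named. Of the wider lists, the genes with an unadjusted p under 0.05 are named, 9 in the ventricle and 1 in the valve (MYC, also among the 9). RRM2B was named after its values were seen. The members and lists were chosen with earlier results of these data known. A search of the members' promoters was not run, as no sequence was used here. Analyses ran in Python 3.11.15 with matplotlib 3.10.9, scipy 1.17.1, pandas 2.3.3 and numpy 2.4.6.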

Additional observations from a re-analysis of the deposited data

How the results depend on the processing

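Group values limit all results: neither the spread between dogs nor depth enters the errors beyond the authors' model. No paired analysis was possible because the tables hold group values only, and leaving out a library was not possible for the same reason. The count of members called stayed at 0 in both tissues and for their difference under each adjustment, filter and centring tried, except that an unadjusted p gave 1 in the valve (TOP2A). The count of members higher in DMVD depends on which members enter: in the ventricle 6 of 12 members whose mean reached 1 FPKM and 9 of 17 tested members, and in the valve 13 of 17 and 17 of 22. Without the row named CCNB2 it was 17 of 32 and 26 of 32. The ventricle median ranged from 0.004 to 0.06 over its alternatives and the valve median from 0.16 (1 FPKM added) to 0.52. With 1 FPKM added, 4 of 65 single-member log2 fold changes moved by at least their SE: MCM2 and FOXM1 in the ventricle and TOP2A and CDC6 in the valve. For MYC in the ventricle the adjusted p ranged from 2.33e-05 to 3.78e-04 over its alternatives, and for TK1 from 0.0262 to 0.279.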
